A study of Bos taurus with 8 samples.

Results

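The miRNAs of the DLK1-DIO3 locus are a large imprinted cluster of mammals. They were chosen by their numbers, as all bovine entries whose number in the name is among 41 numbers known from this locus. The tables listed 45 such entries under 35 of the numbers, out of 534 miRNAs in all, and 36 of the 45 had reads. In the RefSeq annotation of the ARS-UCD2.0 bovine assembly, all 45 entries matched a hairpin gene on chromosome 21 between DLK1 and DIO3, so that the choice by number fits the place in the genome. The 45 entries came from 43 of the 59 miRNA genes annotated between those genes. Small RNA had been sequenced from the sera of 4 healthy lactating Holstein cows and from exosomes, small membrane vesicles that cells release, isolated from the same sera. There was 1 library per cow and sample type, with 4 sera libraries and 4 exosome libraries, and no treatment. The paper states that the profiles of sera may include miRNAs from exosomes, so the sample types are not separate fractions. Sera and exosomes were extracted with different kits, so sample type and extraction cannot be told apart. Each cow gave 1 serum, so the animal and its blood draw cannot be told apart either.

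At this locus the protein-coding genes DLK1, RTL1 and DIO3 are expressed from the paternal chromosome, and the non-coding RNAs MEG3, MEG8 and MEG9 and the miRNAs from the maternal one. The miRNAs are processed from long non-coding transcripts and are known best from brain, placenta and fetal and muscle tissue. In sheep, the callipyge mutation that enlarges muscle lies in this locus. Its first group of hairpins (group A) lies in and around RTL1, a retrotransposon-derived gene needed in the placenta, and is transcribed on the strand opposite to it. The group holds miR-493, miR-665, miR-431, miR-433, miR-127, miR-432, miR-136 and miR-370, and 5 of its 8 hairpins were inside the annotated interval of RTL1. The other group (group B), from miR-379 to miR-410, held 37 entries from 35 hairpins, all of them beyond group A on the chromosome.

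The tables gave RPM, reads scaled to a common total of miRNA reads per library, and whole reads were recovered from them. The sera libraries held 264769 to 590162 miRNA reads and the exosome libraries 60682 to 157710. One read made up 1.69 to 3.78 RPM in a serum library and 6.34 to 16.5 RPM in an exosome library. The floor of detection, set at 3 reads, thus lay at 5.08 to 11.3 RPM for sera and at 19.0 to 49.4 RPM for exosomes. Reads copied by PCR are not separate molecules, so floors and intervals cover counting error only. Of the marker miRNAs, those of red blood cells (miR-144, miR-451, miR-486) summed to 154727.4 to 238990.3 RPM in the 4 sera and to 195395.7 to 384859.5 RPM in the exosome libraries. Those of leukocytes and platelets summed to 30286.4 to 45812.6 RPM over the 8 libraries. Muscle miRNAs stood apart in cow 1, at 23108.2 RPM for sera and 26301.0 RPM for exosomes, against 164 to 355 RPM in the other cows. Of the 7 muscle miRNAs, miR-206 had no reads. Liver miRNAs summed to 13.5 to 135.6 RPM and brain miRNAs to 0 to 44.3 RPM, and the brain marker miR-124 had no reads.

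The cluster was a small part of the miRNAs in blood. Its members held 1693 of the 1567954 miRNA reads of sera and 408 of the 449083 of exosomes. MiR-127, which is complementary to the RTL1 transcript, was the most abundant member. It held 37.2% of the cluster's reads in sera and 44.9% in exosomes, and by mean RPM it ranked 105 in sera and 102 in exosomes among the 445 miRNAs with reads. The next members in sera were miR-380-3p, miR-411a and miR-154c, with ranks of 157, 158 and 167. The exosome ranks of these were 192, 146 and 163.

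**Figure D1:**
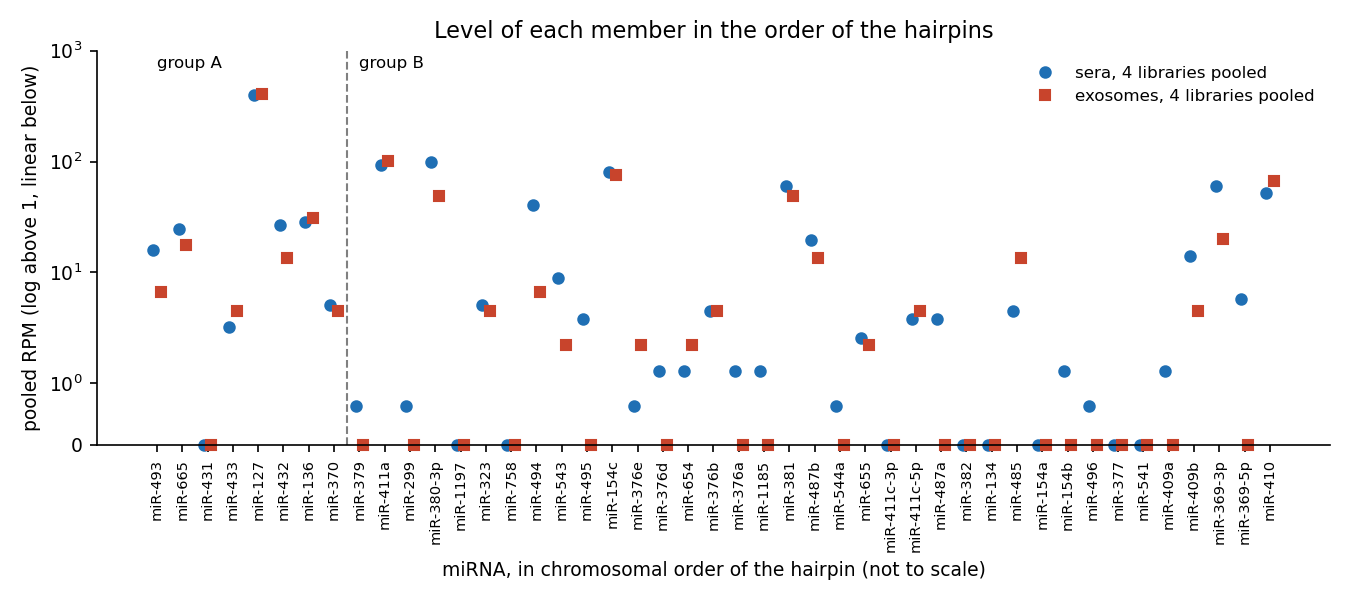
Level of each of the 45 members, pooled over the 4 libraries of a sample type in RPM, in the order of the hairpins on the chromosome. MiR-127 stands highest in both sample types, at 402 RPM for sera and 407 RPM for exosomes, and members with 0 to a few reads lie among the abundant ones.

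Abundance did not follow the order of the hairpins. Pooled over the libraries, miR-127 had 402 RPM in sera, and its neighbours miR-433 and miR-432 had 3.19 and 26.8 RPM. MiR-379, the first hairpin of group B, had 1 read in sera and none in exosomes, while its neighbour miR-411a had 147 and 46 reads. MiR-410, the last hairpin with an entry, had 82 and 30 reads. Of the MIR369 hairpin, the 3p arm held 94 of the 103 reads in sera and all 9 in exosomes.

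Reads were found in all 8 libraries for 7 members, in 5 to 7 libraries for 10 and in 1 to 4 libraries for 19. The 7 members held 75.3% of the cluster's reads in sera and 84.6% in exosomes. No reads were found for miR-134, miR-154a, miR-377, miR-382, miR-411c-3p, miR-431, miR-541, miR-758 and miR-1197. Over the pooled libraries, 3 reads make 1.91 RPM in sera and 6.68 RPM in exosomes, so these 9 members could be missed at lower levels. MiR-134, a regulator of dendritic spines in neurons, was among them.

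**Figure D2:**
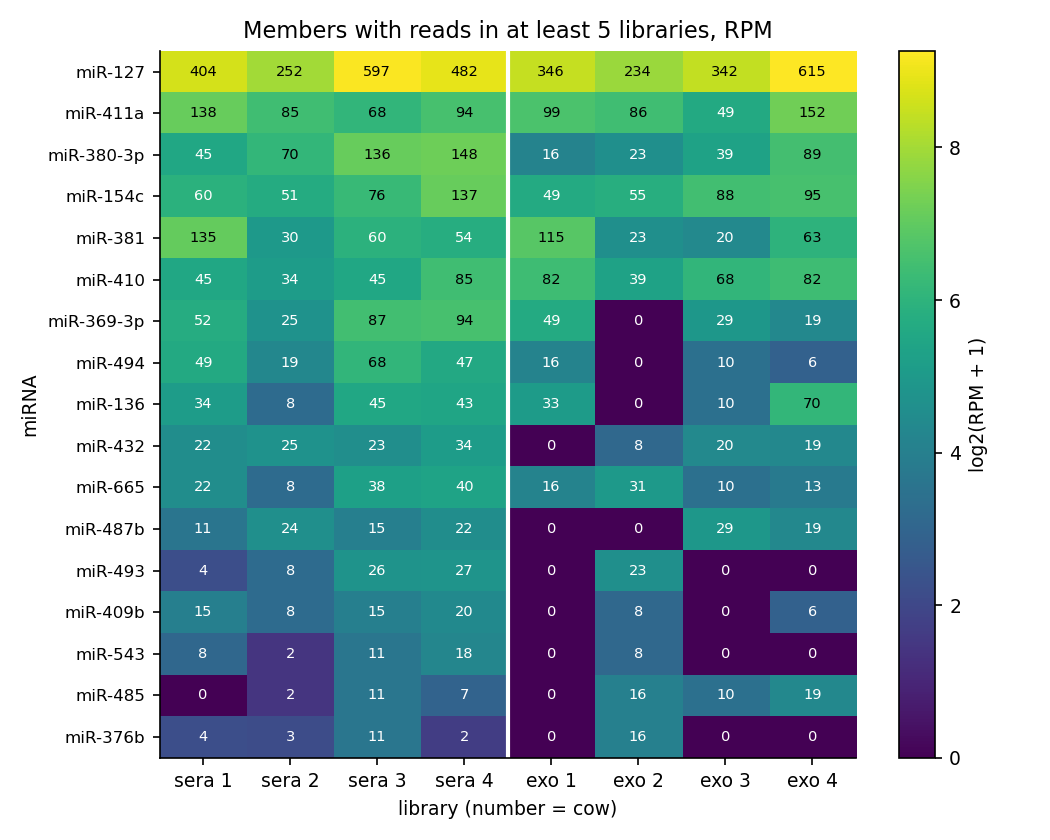
RPM of the 17 members with reads in at least 5 libraries, in rows, in each of the 8 libraries, in columns. The number in a cell is the RPM, rounded, and the colour is log2(RPM + 1). The zeros lie mostly in the exosome columns, where 1 read is worth 6.34 to 16.5 RPM.

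Of the members in group A, miR-127 had 404.2, 252.5, 596.7 and 482.2 RPM in the sera of cows 1 to 4. In exosomes it had 346.1, 233.9, 341.7 and 615.1 RPM. Cow 2 was lowest in both sample types, and the ranges of sera and exosomes overlapped. MiR-136, which also faces RTL1, had 33.7, 8.5, 45.3 and 42.6 RPM in sera and 33.0, 0, 9.8 and 69.7 RPM in exosomes, again with cow 2 lowest. MiR-665 had 22.5, 8.5, 37.8 and 40.4 RPM in sera and 16.5, 31.2, 9.8 and 12.7 RPM in exosomes. The exosome values of miR-665 rested on 8 reads in all. MiR-432 had 22.5 to 33.6 RPM in sera against 0 to 19.5 RPM in exosomes, with every serum above every exosome library. MiR-493 had 3.7, 8.5, 26.4 and 26.9 RPM in sera, and in exosomes it had 3 reads, all in cow 2 (23.4 RPM). MiR-370 and miR-433 had 8 and 5 reads in sera and 2 reads each in exosomes.

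Of the members in group B, miR-411a had 138.5, 84.7, 68.0 and 94.2 RPM in sera (cows 1 to 4) and 98.9, 85.8, 48.8 and 152.2 RPM in their exosomes. MiR-154c had 59.9, 50.8, 75.5 and 136.8 RPM in sera and 49.4, 54.6, 87.9 and 95.1 RPM in exosomes. For both miRNAs the ranges of the sample types overlapped. MiR-380-3p had 44.9, 69.5, 135.97 and 148.0 RPM in sera and 16.5, 23.4, 39.0 and 88.8 RPM in exosomes. Its serum value was above the exosome value in 4 of 4 cows, and cow 4 was highest in both sample types. MiR-381 had 134.7, 30.5, 60.4 and 53.8 RPM in sera and 115.4, 23.4, 19.5 and 63.4 RPM in exosomes. Cow 1 was highest for miR-381 in both sample types. MiR-410 had 44.9, 33.9, 45.3 and 85.2 RPM in sera and 82.4, 39.0, 68.3 and 82.4 RPM in exosomes. It was the only member with reads in all 8 libraries whose mean log2(RPM + 1) was higher in exosomes, although in the edgeR fit with TMM scaling miR-127, miR-154c and miR-411a also had the higher level there.

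The other members of group B had 0 in 1 or more exosome libraries. MiR-369-3p had 52.4, 25.4, 86.9 and 94.2 RPM in sera and 49.4, 0, 29.3 and 19.0 RPM in exosomes. MiR-494 had 48.7, 18.6, 68.0 and 47.1 RPM in sera and 16.5, 0, 9.8 and 6.3 RPM in exosomes. The ranges of miR-494 did not overlap, and its exosome values rested on 3 reads against 63 in sera. MiR-409b had 8.5 to 20.2 RPM in sera against 0 to 7.8 RPM in exosomes, also without overlap. MiR-487b had 11.2 to 23.7 RPM in sera against 0 to 29.3 RPM in exosomes, and miR-485 had 0 to 11.3 against 0 to 19.0 RPM. For miR-487b and miR-485 the ranges overlapped. MiR-543 had 7.5, 1.7, 11.3 and 17.9 RPM in sera and 1 read in exosomes, in cow 2. MiR-376b had 3.7, 3.4, 11.3 and 2.2 RPM in sera and 2 reads in exosomes, both in cow 2. MiR-369-5p had 0, 1.7, 15.1 and 9.0 RPM in sera, and miR-495 had 7.5, 1.7, 11.3 and 0 RPM. Neither had reads in exosomes.

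The rest had at most 10 reads over the 8 libraries. MiR-323 had 8 reads in sera and 2 in exosomes, miR-411c-5p had 6 and 2, and miR-655 had 4 and 1. MiR-654 had 2 reads in sera and 1 in exosomes, and miR-376e had 1 in each. MiR-487a had 6 reads, all in the serum of cow 4. MiR-154b, miR-376a, miR-376d, miR-409a and miR-1185 had 2 reads each in sera and none in exosomes. MiR-299, miR-379, miR-496 and miR-544a had a single serum read each. MiR-376a and miR-376d had the same values in every library, and the hairpins of miR-409a and miR-409b are annotated at the same place. Reads of such pairs may not be separable.

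Detection was compared with the depth in view. With the limit of over 1 RPM in 2 or more cattle, 29 members were expressed in sera and 15 of the same members in exosomes. The 14 members expressed only in sera made up 48.3% of the 29, against 21.6% of all 365 miRNAs expressed in either sample type. These 14 members had 97 reads in sera, a share that would give 27.8 reads at the pooled depth of exosomes, and 14 exosome reads were found. The definition of this list admits at most 1 exosome library with reads, and so forces a shortfall. Reads in sera and none in exosomes were seen for 12 members, which had 35 serum reads in all. Their serum share corresponds to 10.02 exosome reads. This list was chosen by having no exosome reads, so its shortfall too is set by the definition. No member had reads only in exosomes. The shares of all miRNAs for these counts of reads were not computed. By the expression limit, 282 of all 286 miRNAs expressed in exosomes were also expressed in sera.

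Per library, 18, 25, 26 and 31 members had reads in sera for cows 1 to 4, against 10, 13, 16 and 19 in exosomes. The means were 25.0 ± 5.35 in sera and 14.5 ± 3.87 in exosomes (SD, n = 4). At an equal depth of 60682 reads, the expected numbers were 15.2 ± 3.15 in sera and 11.8 ± 1.89 in exosomes (SD, n = 4). For all miRNAs at this depth the numbers were 259 ± 10.4 in sera and 250 ± 11.8 in exosomes (SD, n = 4). At equal depth the ranges of the cluster overlapped, with 12.1 to 18.3 members in sera and 10 to 13.8 in exosomes. Within cows, the serum number of members was the higher in all 4. For all miRNAs it was the lower in cow 1, with 252 in serum against 256 in exosomes, and the higher in the other cows. The depth counts all miRNA reads, of which the red blood cell markers took a larger part in the exosomes of every cow.

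In the summed level of the cluster in RPM, the highest and lowest cows differed more than the serum and exosomes of any cow. Some cows lay closer to each other, such as cows 3 and 4 in sera. It was 1059.2, 678, 1397.4 and 1435.5 RPM in sera for cows 1 to 4, against 824, 569, 761 and 1312.5 RPM in their exosomes. Cow 2 was lowest and cow 4 highest in both sample types. The highest library was 2.12 times the lowest in sera and 2.31 times in exosomes. The mean was 1142.5 ± 353 RPM for sera (SD, n = 4) and 867 ± 316 RPM for exosomes (SD, n = 4). The ratio was 1.32, and the ranges overlapped. The sum was higher in sera in 4 of 4 cows, by 1.29, 1.19, 1.84 and 1.09 times for cows 1 to 4. The exact binomial intervals (95%) were 1258.7 to 1547.2 RPM in the serum of cow 3 and 602 to 950 RPM in its exosomes, without overlap. In the other cows the intervals of serum and exosomes overlapped.

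This order of sera and exosomes depended on the scaling. With TMM scaling, which is based on the bulk of the miRNAs, the ratio was 1.14 and the sum was higher in sera in 2 of 4 cows. The same numbers resulted when miR-486, the most abundant miRNA, was left out of the library totals. The red blood cell markers, of which miR-486 is a part, were higher in the exosomes of every cow, and their part in the ratio was otherwise not tested. They were highest in cow 2 in both sample types, at 238990.3 RPM in sera and 384859.5 RPM in exosomes. Their part in the order of the cows was not tested. With TMM scaling the SD between cows was 280 RPM for sera and 324 RPM for exosomes. The values of single cows are given in RPM only.

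**Figure D3:**
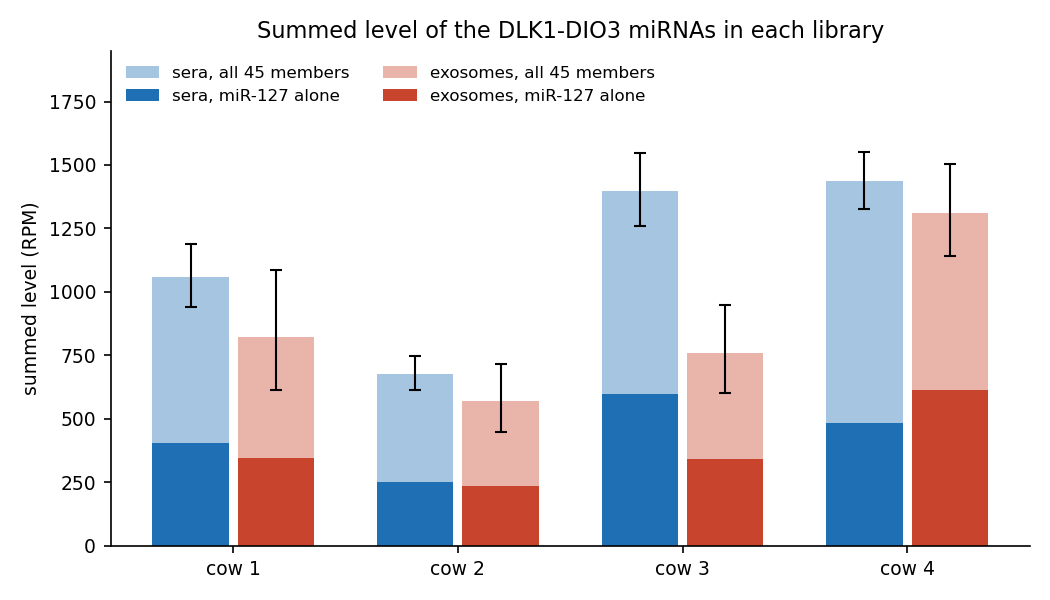
Summed level of the 45 members in RPM in each cow, for sera and exosomes, with the part of miR-127 in the darker colour and the exact 95% binomial interval of the sum as the bar. Cow 2 is lowest and cow 4 highest in both sample types.

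Groups A and B kept similar parts of the sum in every library. Group A held 44.8% to 52.4% of the cluster's reads in sera and 48.0% to 56.0% in exosomes. The sum of group A was 543.3 ± 185.8 RPM for sera against 454.4 ± 192.9 RPM for exosomes, and that of group B was 599.2 ± 178.6 against 412.3 ± 127.2 RPM (SD, n = 4). Group B was higher in sera in 4 of 4 cows and group A in 3 of 4. MiR-127 held 630 of the 794 group A reads in sera and 183 of the 218 in exosomes. It alone was higher in sera in 3 of 4 cows. The groups were not compared with TMM scaling. Across the 15 members expressed in both sample types, the log2 mean RPM in sera and exosomes had a Pearson r of 0.858 (Spearman rho of 0.868). Across all 282 such miRNAs r was 0.974. These points share libraries and depth and are not replicates. The values of r are not on like terms, since the members span a smaller range of levels and include entries with few reads.

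Which miRNAs differ between sera and exosomes was a question of the study. A miRNA was called when its FDR was under 0.05 and its log2 fold change (log2 FC) was beyond 1 in either direction. The fits of limma, edgeR and DESeq2 given first did not use the pairing of serum and exosomes by cow. By limma on log2(RPM + 1) over 365 miRNAs, 0 of the 29 members tested were called in either direction. Of all miRNAs tested, 3.01% were called higher in sera and 1.37% higher in exosomes. With the p left unadjusted and the fold limit kept, 6 members (20.7%) had the higher level in sera, against 12.6% of all miRNAs. In exosomes it was 0 members, against 1.92% of all miRNAs. By edgeR's quasi-likelihood test on whole reads, also 0 members were called, against 1.64% of all miRNAs higher in sera and 2.19% higher in exosomes. DESeq2 called 0 members too, against 0.822% and 3.56%. Without adjustment, each of these tests had 1 member, miR-494 in sera, against 3.29% of all miRNAs by edgeR and 2.19% by DESeq2. In exosomes they had 0 members, against 4.38% and 4.66%. The 6 members of the limma fit were miR-494, miR-369-5p, miR-409b, miR-495, miR-543 and miR-493. Of these, miR-369-5p, miR-495, miR-543 and miR-493 entered the test through sera only, with 0, 0, 1 and 3 exosome reads. The higher share of the members is thus in part set by the filter. MiR-494 had a log2 FC of 2.80 (standard error 0.98, limma FDR = 0.114) and miR-493 of 2.61 (standard error 1.18, limma FDR = 0.175). With 0 reads in 3 of 4 exosome libraries, the log2 FC of miR-493 was 4.98 at a pseudocount of 0.1 RPM, 0.84 at a pseudocount of 10 RPM and 0.97 by edgeR with TMM. MiR-127, with a log2 FC of 0.20 (standard error 0.34, limma FDR = 0.767), was measured with the most reads of all members. Without the exosomes of cow 1, miR-494 was called (limma FDR = 0.0454), and without the exosomes of cow 2, miR-493 was called (limma FDR = 0.0304). The latter set the sera against exosomes with 0 reads, since all 3 exosome reads of miR-493 were in cow 2.

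With the cow as a replicate block, which uses the pairing of serum and exosomes, members were called higher in sera. Limma then called miR-494 (log2 FC of 2.80, FDR = 0.0182), miR-369-3p (log2 FC of 2.15, FDR = 0.0252) and miR-380-3p (log2 FC of 1.36, FDR = 0.0486), which is 10.3% of the members against 7.95% of all miRNAs. Higher in exosomes were 0 members, against 1.64% of all miRNAs. EdgeR with the block called miR-494 (log2 FC of 2.42, FDR = 0.0176) and miR-369-3p (log2 FC of 1.47, FDR = 0.0448), 6.90% of the members against 3.56% of all miRNAs. All 3 miRNAs had the higher value in sera in 4 of 4 cows, as did miR-409b and miR-432, which makes 17.2% of the members against 30.7% of all miRNAs. For 0 members were the exosomes higher in 4 of 4 cows, against 4.11% of all miRNAs. MiR-369-3p had 94 reads in sera and 9 in exosomes, and miR-380-3p had 22 in exosomes. In the blocked limma fit the variance was pooled completely over miRNAs of like level, so the FDR does not measure the spread of these miRNAs alone.

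**Figure D4:**
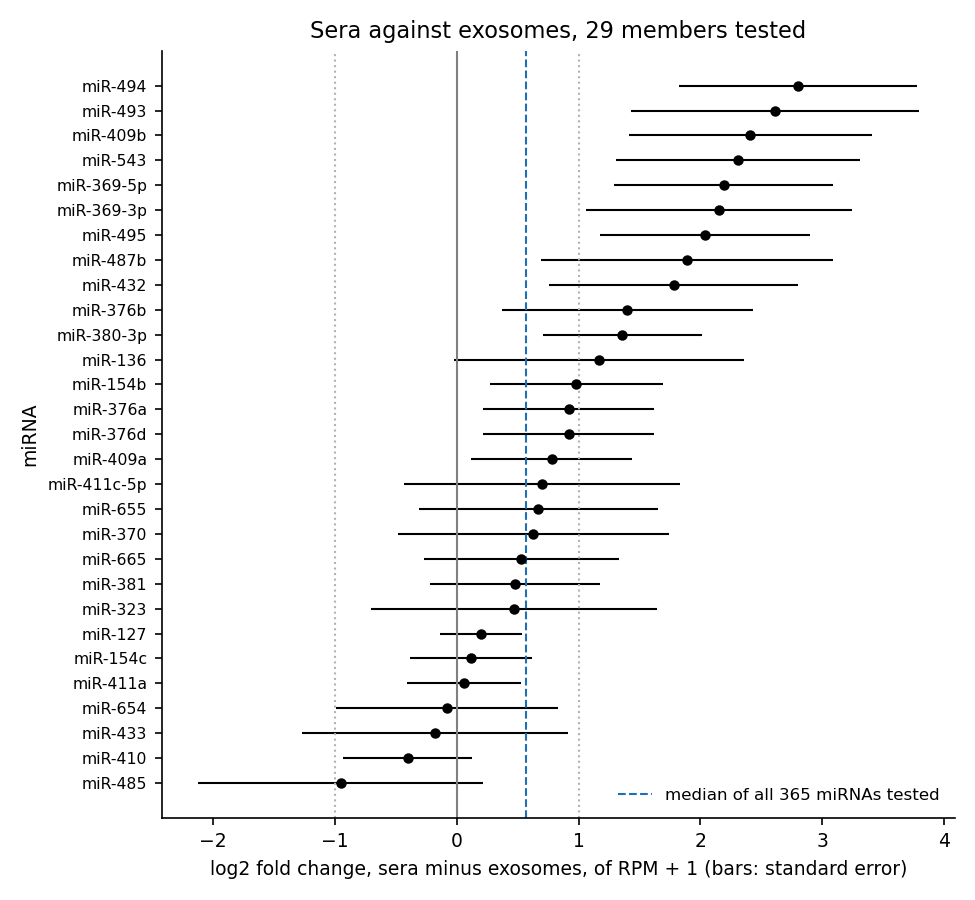
Log2 fold change of each of the 29 members tested, sera minus exosomes on log2(RPM + 1), with its standard error. The solid line is 0, the dotted lines are the fold limits of 1 and -1, and the dashed line is the median of all 365 miRNAs (0.57). Most members lie to the right of 0, and those with the most reads, such as miR-127, miR-411a and miR-154c, lie near it. Of the 29 members, 14 passed the expression limit in sera only, which favours a positive value.

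The direction of the members as a list differed between fits. All 29 members tested had passed the expression limit in sera. Of these, 14 (48.3%, against 21.6% of all miRNAs) passed it in sera only, and 0 members passed it in exosomes only. This filter favours a positive log2 FC and a higher median for the members. By limma 25 of the 29 members had a positive log2 FC (86.2%, against 74.8% of all miRNAs). In edgeR it was 23 of 29 with library totals (79.3%, against 67.1%) and 17 of 29 with TMM scaling (58.6%, against 57.3%). With DESeq2 it was 12 of 29 (41.4%, against 44.9%). By limma the median log2 FC was 0.57 for all miRNAs and 0.92 for the members, a difference of 0.35. The pseudocount alone moved this difference to 1.27 at 0.1 RPM and to -0.07 at 10 RPM. In edgeR these medians were 0.33 and 0.50 with library totals, a difference of 0.17, and 0.12 and 0.30 with TMM, a difference of 0.18. By DESeq2 they were -0.06 and -0.20, so the members' median lay below that of all miRNAs. For the 7 members with reads in all 8 libraries the median was 0.20 by limma, against 0.32 for the 211 miRNAs with reads in all 8. With TMM it was -0.07 against 0.11, and by DESeq2 -0.19 against -0.03, so the well covered members had the lower median in these 3 fits. In limma's fit the order turned without the serum of cow 2 (0.43 against 0.42) and without the exosomes of cow 4 (0.42 against 0.35). Ranges that did not overlap, with sera above exosomes, were seen for miR-409b, miR-432 and miR-494, which is 10.3% of the members against 11.8% of all miRNAs. For 0 members did the exosomes lie above the sera, against 2.47% of all miRNAs.

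How stable the profiles were between animals was the other question. In a fit of sample type and cow, 3 members differed between cows by limma's F test at an FDR under 0.05, namely miR-127 (FDR = 0.00174), miR-369-3p (FDR = 0.0193) and miR-136 (FDR = 0.0284). This is 10.3% of the 29 members, against 25.5% of all 365 miRNAs. Only 1 member had 10 reads or more in every library, against 128 of all miRNAs, so these shares are not compared at like depth. The 3 members called were lowest in cow 2. Averaged over the serum and the exosomes of a cow on log2(RPM + 1), miR-127 ranged from 7.93 in cow 2 to 9.09 in cow 4, which is a factor of 2.24. MiR-136 ranged from 1.62 in cow 2 to 5.79 in cow 4, and miR-369-3p from 2.36 in cow 2 to 5.70 in cow 1. The values of miR-136 and miR-369-3p in cow 2 include 0 reads in exosomes, where the pseudocount sets the size of the difference. In this limma fit the variance was pooled completely over miRNAs of like level, so the FDRs do not measure the spread of each miRNA alone. Both libraries of a cow came from the same serum, so the test has no replicate draw of an animal.

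EdgeR on the recovered reads also called 3 members between cows, miR-127 (FDR = 0.0116), miR-380-3p (FDR = 0.0116) and miR-381 (FDR = 0.0166), against 24.7% of all miRNAs. MiR-127 was the only member called by both tests. In limma's fit without cow 2 or without cow 4, 0 members were called, against 17.8% and 15.9% of all miRNAs, and miR-127 had an FDR of 0.464 and 0.0683. An unadjusted p under 0.05 was found without cow 2 for 3 members (miR-370, miR-380-3p and miR-485), against 26.3% of all miRNAs. Without cow 4 it was found for 3 members (miR-127, miR-369-3p and miR-381), against 27.4% of all miRNAs. MiR-369-3p was also not called without cow 3 (limma FDR = 0.0691). MiR-381 was highest in cow 1, where the muscle miRNAs were also highest, with 134.7 RPM in serum against 30.5 to 60.4 RPM in the other cows. In exosomes it had 115.4 RPM in cow 1 against 19.5 to 63.4 RPM. The part of the muscle miRNAs in this was not tested. The other members with reads in all 8 libraries were not highest in cow 1, except miR-411a in sera and miR-410 in exosomes, where cows 1 and 4 had 82.4 RPM each.

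**Figure D5:**
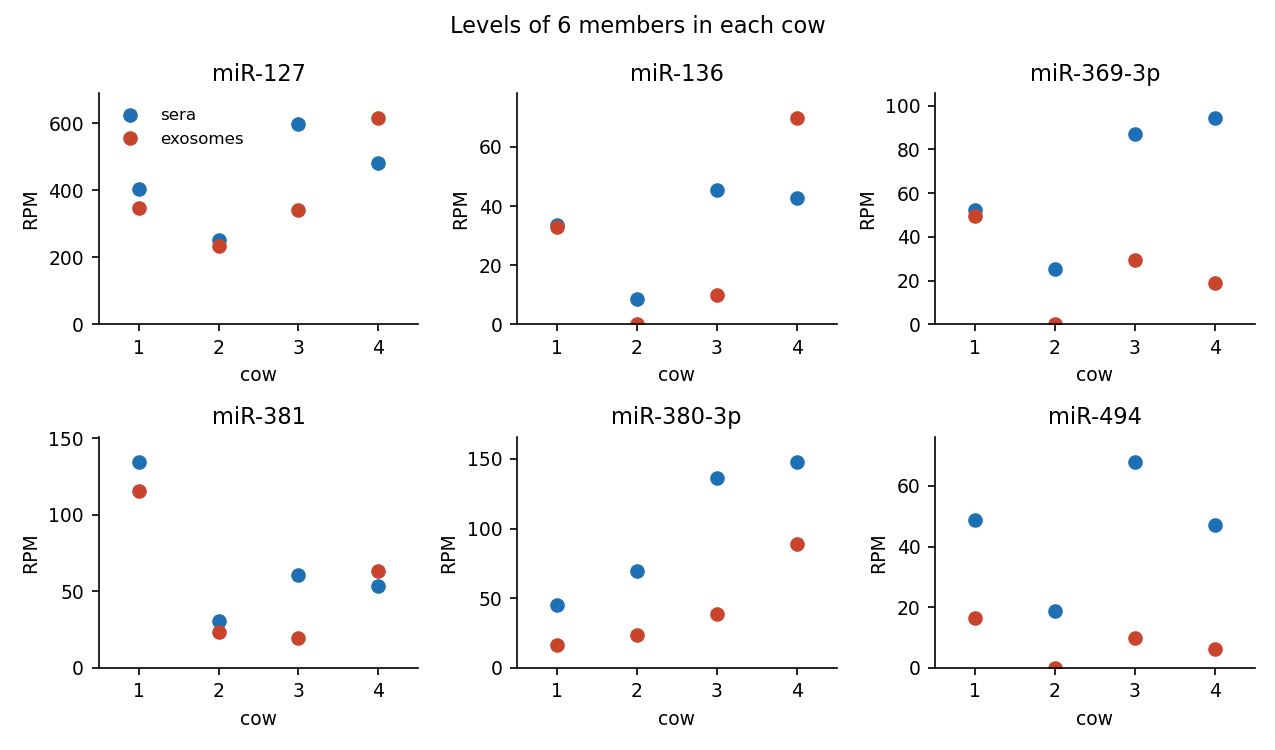
RPM of 6 members in each cow, with sera and exosomes as separate points. MiR-127, miR-136 and miR-369-3p are lowest in cow 2 in both sample types, miR-381 is highest in cow 1 in both, and miR-380-3p and miR-494 have the serum point above the exosome point in every cow.

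Cow 2 was the lowest serum for 10 of the 17 members with reads in at least 5 libraries (58.8%), and for 37.6% of all 290 such miRNAs. Cow 4 was the highest serum for 9 of the 17 members (52.9%), and for 25.9% of all such miRNAs. In exosomes, cow 2 was lowest for 5 of the 17 members (29.4%, against 38.3% of all) and cow 4 was highest for 6 (35.3%, against 22.1%), leaving out ties. These shares are counts over members of the same libraries, and no test was made over them.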

How the data were processed

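Small RNA of 4 sera and 4 exosome samples of the same 4 cattle was sequenced, with 1 library each. Reads were filtered by the authors with CASAVA 1.8, and sRNAbench served for adaptor trimming and for matching to the bovine entries of miRBase. The authors deposited RPM for each library, and these values sum to 999998.3 to 1000002.2, so the base is the miRNA reads. Whole reads were recovered from the RPM steps, with 100% of 2492 values whole within 0.05 RPM. Hairpins were matched by name to the RefSeq gene table. No mature sequences were at hand, and coordinates are left out because the table is of another assembly than the study's.

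The members and lists were chosen with earlier results of these data known. Values in every library are given for members with reads in all 8 libraries, members past a threshold and members the paper names, and the others are summarised. Limma (lmFit, eBayes with trend) was run on log2(RPM + 1) over miRNAs above 1 RPM in 2 or more cattle of a sample type, with Benjamini-Hochberg FDR, for sample type and, in a fit with the cow, for the cow (F test). EdgeR's quasi-likelihood test and DESeq2 were run on recovered reads. The limma and edgeR fits for sample type and for cow were first run on simulated reads with planted changes. This check asked only that a part of the planted changes was found among well covered miRNAs, and it set no limit on false calls. The reads simulated for sample type held no differences between cows. The check does not cover members with few reads. Alternatives were other pseudocounts and filters, other scalings, the cow as a replicate block, identical entries counted once and each library or cow left out. Equal depth was computed with the hypergeometric formula.

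Same-numbered libraries come from the same cow, by the paper and the labels. Over the 128 miRNAs whose 8 libraries all held 10 reads or more, deviations from the mean of the sample type had r of 0.740 to 0.860 within a cow. Between cows the highest r was 0.195, and for all 4 sera the best match was the exosome library of the same cow. The average between cows was -0.244, but taking deviations from the mean in itself pushes this value below 0. Replicates differed by more than counting noise, with a chi-square of at least 29.1 for each degree of freedom. Tests were run in R 4.3.3 with DESeq2 1.42.0, edgeR 4.0.16 and limma 3.58.1. Other values were computed in Python 3.11.15 with pandas 2.3.3, SciPy 1.17.1 and NumPy 2.4.6, and plots with matplotlib 3.10.9.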

Additional observations from a re-analysis of the deposited data

Results flagged for a closer look

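MiR-376b in sera had a library that stood apart from the other 3, with 11.3 RPM in cow 3 against 2.2 to 3.7 RPM. The gap was 0.835 of the range, which is over Dixon's 95% critical value for 4 samples. Its values rest on 7 reads in sera, and cow 3 had 3 of them. Of 31 groups of 4 libraries looked at in this way, this was the only 1, and chance gives about 1 in 20.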

How the results depend on the processing

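Depth limits these values, and 19 of the 36 members with reads had them in at most 4 libraries. Of all miRNAs, limma called 11 higher in sera and 5 in exosomes, edgeR with TMM 6 and 8, DESeq2 3 and 13, limma with the replicate block 29 and 6, and edgeR with the block 13 and 13. Of the members, 0 were called, against 3 by limma and 2 by edgeR with the replicate block, all higher in sera. With a library left out, limma called between 7 and 18 miRNAs for sera and between 3 and 5 for exosomes, and of the members 0 to 1 for sera and 0 for exosomes. Between cows, the 3 members called of 29 became 1 of 29 with a pseudocount of 10 RPM (85 of all 365 miRNAs), 1 of the 7 members left by a filter of 10 reads on average (84 of all 192), and 0 to 3 of 29 leaving out a cow (93 miRNAs in all became 58 to 86).

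The summed level had a mean of 709 RPM in sera and 483 RPM in exosomes without miR-127. Leaving miR-486 out of the totals, a choice made after seeing the data, gave 1183.2 RPM in exosomes. The sum was higher in sera in 2 of 4 cows with that total and in 2 of 4 with TMM. Leaving out a library, the mean was 1044.8 to 1297.4 RPM for sera and 718 to 966 RPM for exosomes. The number of members per library was 15.2 in sera at equal depth, and 17.8 in sera and 8.0 in exosomes with at least 3 reads.

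Against limma, the log2 FC had the opposite sign for 8 of 29 members by edgeR with TMM, 2 by edgeR with library totals, 6 by edgeR with TMM and the replicate block and 13 by DESeq2, which include the 8, the 2 and the 6. For the members followed through every setting, with edgeR and TMM, DESeq2 and edgeR with TMM and the replicate block, it was -0.07, -0.19 and -0.06 for miR-127, -0.07, -0.20 and -0.06 for miR-154c, -0.22, -0.36 and -0.27 for miR-411a, and -0.17, -0.36 and -0.22 for miR-376b. MiR-411a had -0.03 by edgeR with library totals. MiR-136 had -0.12 by edgeR with TMM and -0.17 by DESeq2. Leaving out a library, the log2 FC was -0.01 to 0.45 for miR-127, -0.05 to 2.0 for miR-136, -0.17 to 0.30 for miR-154c and -0.22 to 0.32 for miR-411a. The cause of these changes was not tested.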
